A study of Mus musculus with 8 samples.

Results

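The 10 genes followed here carry the neuregulin and Notch signals that build the trabeculae of the embryonic ventricle. They are the ligands *Nrg1*, *Dll4*, *Bmp10* and *Efnb2*, the receptors *Erbb2*, *Erbb3*, *Erbb4* and *Notch1*, the transcription factor *Hey2* and the protease *Adamts1*. They were selected by symbol, and all 10 were found among the 26590 gene symbols of the deposited table, in 19 of its 51414 transcript rows. For each gene, the row with the highest level (average of the genotype means) was used, and the other rows are described separately.

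RNA was taken from whole hearts of 4 *Dio3+/+* (wild type) and 4 *Dio3-/-* (knockout) fetuses of the C57BL/6J strain, 1 heart per fetus, with no treatment. *Dio3* encodes the type 3 deiodinase, which inactivates thyroid hormones. The *Dio3-/-* line is a germline inactivation, so every tissue of the fetus carried it, and it had been backcrossed from a 129 background. The titles of all 8 samples give E13.5, but the age field of 2 *Dio3-/-* hearts gives E18.5 and the study's methods name another day. These hearts could not be separated from the other 2 in the genotype means, so genotype and recorded age cannot be told apart. The hearts are described as male, yet both genotypes contained *Xist*, transcribed from the inactive X chromosome (35.64 RPKM in *Dio3+/+*, 39.97 RPKM in *Dio3-/-*), and *Eif2s3y* from the Y chromosome (9.38 and 7.29 RPKM). *Dio3* averaged 0.35 RPKM (coefficient of variation 1.23) in the *Dio3+/+* group and 0.13 RPKM (0.76) in *Dio3-/-* hearts, too low to check the genotype labels. The coefficient of variation (CV) is the SD between the 4 hearts of a genotype divided by their mean. RPKM, the read count scaled to transcript length and to the mapped reads, is a level per length and can be compared between genes. The table holds the authors' mean and coefficient of variation per genotype, with no value of a single heart and no read total, so the counting error of each mean could not be given from it.

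Trabeculae are muscular ridges that grow from the inner face of the ventricle into an extracellular matrix called the cardiac jelly. NOTCH1 in the endocardium, the endothelium that lines the heart, is activated by DLL4 and acts through EFNB2 and NRG1. NRG1 is secreted to the myocardium and binds ERBB4, which pairs with ERBB2. BMP10 is made by trabecular myocardium and sustains its proliferation, HEY2 marks the compact outer myocardium, and ADAMTS1 cuts versican in the jelly and limits trabecular growth.

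None of the 10 genes differed between genotypes at an adjusted *P* value under 0.05 by limma, whose adjustment ran over the 32703 rows in which either genotype averaged above 1 RPKM. Over all 14657 genes tested by their highest row, 2.29% passed, so 0 of 10 is near that background. None of the 17 member rows tested passed either, against 2.15% of all rows, and by any row the background was 2.59% of genes. *Notch1* was the only member with an unadjusted *P* value under 0.05 by limma, 1 of 10 against 19.7% of all genes, and Welch's test from the same summaries also called 0 members with 1 at an unadjusted *P* value under 0.05. The 95% interval of every member lay within a 1.5-fold difference in either direction, except that *Erbb3* crossed this limit in some alternatives. Of the 10 log2 fold changes (*Dio3-/-* against *Dio3+/+*, on the log2(RPKM + 0.5) scale), 6 were positive and 4 negative. Among all 14657 genes tested, 9273 were positive and 5295 negative. The median of the members was 0.04, equal to the median of 0.04 over all genes tested.

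**Figure D1:**
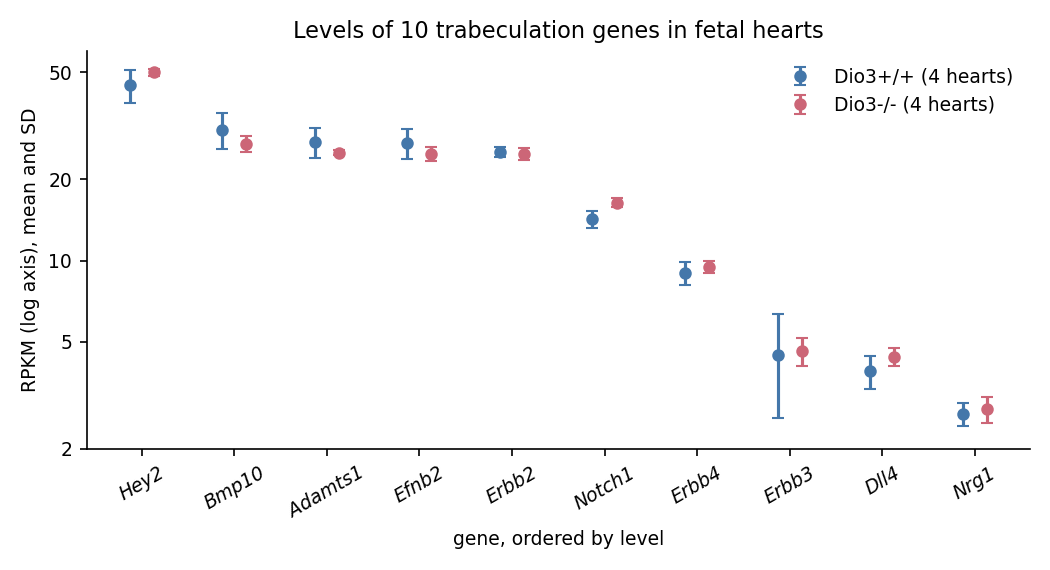
Mean RPKM of each gene (vertical log axis) in 4 *Dio3+/+* hearts (blue) and 4 *Dio3-/-* hearts (red), with bars of 1 SD, genes ordered by level. Each gene is shown by its highest row. By these rows *Hey2* is highest and *Nrg1* lowest in both genotypes, and the bars of the genotypes are apart for *Notch1* only.

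The levels of the members spanned from 2.70 RPKM for *Nrg1* to 44.75 RPKM for *Hey2* in *Dio3+/+* hearts, and from 2.80 to 50.07 RPKM in *Dio3-/-* hearts. The order was the same in both genotypes: *Hey2*, *Bmp10*, *Adamts1*, *Efnb2*, *Erbb2*, *Notch1*, *Erbb4*, *Erbb3*, *Dll4* and *Nrg1*. *Bmp10*, *Adamts1*, *Efnb2* and *Erbb2* followed each other with means from 30.56 down to 25.30 RPKM in *Dio3+/+* hearts, and each overlapped its neighbour within 1 SD in both genotypes, as *Erbb3* and *Dll4* did. The other neighbours were apart by more than their SDs. *Hey2* exceeded 94.4% of all gene symbols in mean level, whereas *Nrg1* exceeded 54.4%.

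Among the ligands, *Nrg1* averaged 2.70 RPKM (CV 0.10) in the wild type and 2.80 RPKM (0.11) in the knockout. Its log2 fold change was 0.04 (95% interval −0.16 to 0.25, adjusted *P* = 0.848 by limma), and the means ± SD of the genotypes overlapped. *Nrg1* held most of the summed level of the 4 neuregulin genes, 67.5% of 4.00 RPKM in *Dio3+/+* and 62.5% of 4.48 RPKM in *Dio3-/-* hearts. *Nrg4* held most of the rest, and *Nrg3* was at 0.01 RPKM in both genotypes. *Dll4*, the endothelial Notch ligand, averaged 3.88 RPKM (0.14) and 4.4 RPKM (0.08), for a log2 fold change of 0.16 (−0.06 to 0.38, adjusted *P* = 0.416 by limma). It stood below *Jag1*, the ligand with the highest level of the 5 Notch ligand genes, which had 12.34 and 11.52 RPKM. *Dll4* made up 17.1% of the summed ligand level in *Dio3+/+* and 19.8% in *Dio3-/-* hearts, and genotypes overlapped within 1 SD. *Efnb2*, the membrane ligand of EPHB4 and a target of Notch, averaged 27.34 RPKM (0.13) and 24.90 RPKM (0.06), with a log2 fold change of −0.13 (−0.33 to 0.07, adjusted *P* = 0.470 by limma) and overlapping means ± SD.

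*Erbb2*, which encodes the receptor partner that binds no neuregulin itself, was the member with the narrowest interval. It averaged 25.30 RPKM (CV 0.04) in the wild type and 24.88 RPKM (0.05) in the knockout, and its log2 fold change of −0.02 had a 95% interval from −0.14 to 0.09, or 0.908-fold to 1.07-fold. A 1.18-fold difference with the same standard error would have passed the test. *Erbb4*, the neuregulin receptor of cardiomyocytes, averaged 8.98 RPKM (0.10) and 9.45 RPKM (0.05), for a log2 fold change of 0.07 (−0.10 to 0.24, adjusted *P* = 0.667 by limma). The means ± SD of the genotypes overlapped for both receptors. *Erbb2* made up 59.7% of the summed level of *Egfr*, *Erbb2*, *Erbb3* and *Erbb4* in *Dio3+/+* and 60% in *Dio3-/-* hearts, and *Erbb4* 21.2% and 22.8%. The level of *Erbb2* was 2.82 times that of *Erbb4* in *Dio3+/+* and 2.63 times in *Dio3-/-* hearts.

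*Erbb3*, whose product binds neuregulin but has little kinase activity, was the least certain member. It averaged 4.47 RPKM in the wild type and 4.61 RPKM in the knockout, but the coefficient of variation was 0.42 between *Dio3+/+* hearts and 0.12 between *Dio3-/-* hearts. Its log2 fold change of 0.04 had a 95% interval from −0.48 to 0.56 (adjusted *P* = 0.950 by limma), and only a difference of 2.09-fold or more would have passed the test. A coefficient of variation of 0.42 or more in *Dio3+/+* hearts was found for 3.77% of all genes tested. Genes chosen after their values were seen also had a wide spread in the *Dio3+/+* group: *Egfr* (0.74 in *Dio3+/+*, 0.09 in *Dio3-/-*), *Notch2* (0.38, 0.07) and *Notch3* (0.39, 0.05). Most genes of their lists did not, with a median *Dio3+/+* CV of 0.10 in the ErbB list and 0.11 in the Notch list. Without values of single hearts, it is not known whether the same heart carried these spreads. The 4 marker genes of cushion mesenchyme, a tissue in which *Erbb3* is known to act, had a median CV of 0.485 between *Dio3+/+* and of 0.075 between *Dio3-/-* hearts, and their median log2 fold change was −0.38. Of these 4, *Prrx1* (CV 0.92 and 0.08), *Twist1* (0.51 and 0.08) and *Sox9* (0.46 and 0.07) had a wide spread between *Dio3+/+* hearts, and *Postn* (0.17 and 0.04) did not. Their summed level was 203.37 and 188.77 RPKM, of which *Postn* held 143.75 and 147.11 RPKM. The part of this tissue in the *Erbb3* level was not tested. In whole-heart RNA, fewer cells of a type and less RNA per cell cannot be told apart.

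**Figure D2:**
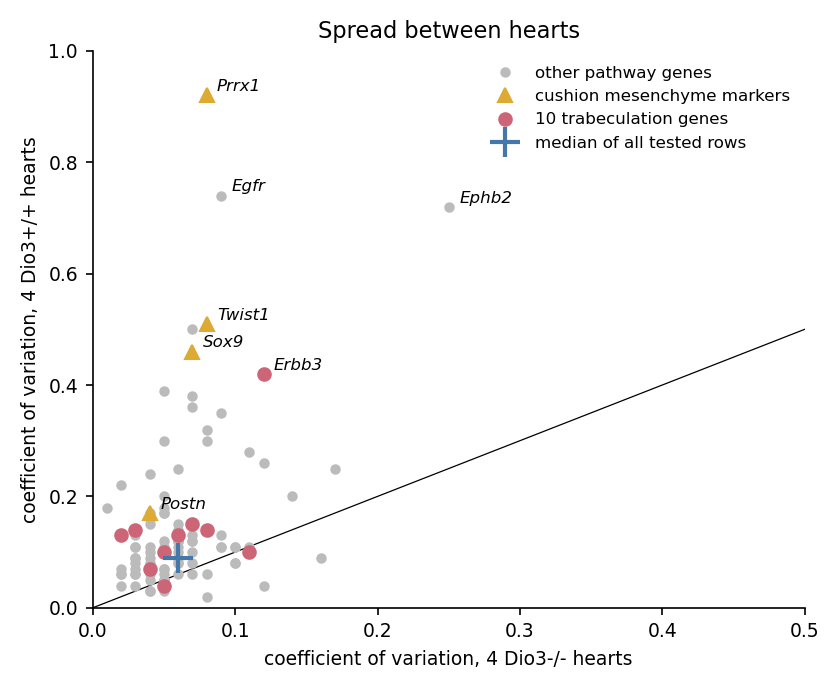
Coefficient of variation between 4 *Dio3+/+* hearts (vertical axis) against that between 4 *Dio3-/-* hearts (horizontal axis), both without units, with the diagonal of equal spread. Of the 10 trabeculation genes (red), 8 lie above the diagonal, *Erbb3* lies at 0.42 and 0.12, and of the cushion mesenchyme markers (triangles) *Sox9*, *Twist1* and *Prrx1* lie higher than *Erbb3* and *Postn* lower.

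The spread of the members was larger in *Dio3+/+* than in *Dio3-/-* hearts for 8 of 10, with medians of 0.13 and 0.055. A larger value in *Dio3+/+* hearts was also found for 65.4% of all genes tested, and the medians over all tested rows were 0.09 and 0.06. *Erbb2* and *Nrg1* were the 2 members with the larger spread in *Dio3-/-* hearts, in each case by 0.01, the last deposited digit. The narrowest *Dio3-/-* spreads were those of *Adamts1* (0.02 against 0.13 in *Dio3+/+*) and *Hey2* (0.03 against 0.14). The plot of both spreads places most members close to the median of all rows.

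*Notch1*, the endocardial receptor, came nearest to the threshold. Its highest row averaged 14.22 RPKM (CV 0.07) in the wild type and 16.40 RPKM (0.04) in the knockout, and the mean ± SD was 13.22 to 15.22 RPKM and 15.74 to 17.06 RPKM. It was the 1 member of 10 whose genotypes did not overlap within 1 SD, which 15.5% of all genes tested also did not. The log2 fold change was 0.20 (standard error 0.06, 95% interval 0.07 to 0.33, unadjusted *P* = 0.00754 and adjusted *P* = 0.107 by limma). A log2 fold change of 0.27 would have passed. Over the alternatives the adjusted *P* value went from 0.0866 to 0.227, the last with all log2 ratios centred on their median.

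The other rows of *Notch1* did not all share this direction. Row uc008ivl.2 averaged 13.93 and 15.32 RPKM (log2 fold change 0.13, unadjusted *P* = 0.0202 and adjusted *P* = 0.171 by limma), and row uc008ivo.1 averaged 6.74 RPKM (0.08) and 6.85 RPKM (0.24). Row uc008ivm.1 averaged 3.45 RPKM (0.03) in the wild type and 3.12 RPKM (0.08) in the knockout, for a log2 fold change of −0.13 (−0.28 to 0.03, adjusted *P* = 0.377 by limma). A further row under the lower-case symbol notch1, which the selection by symbol does not take, had 3.4 and 3.07 RPKM and a log2 fold change of −0.13. Rows of 1 gene can share reads, and the difference between them was not tested. *Notch1* held 37.3% of the summed level of the 4 Notch receptors in *Dio3+/+* and 44.2% in *Dio3-/-* hearts. These shares also depend on *Notch2* (12.05 and 10.68 RPKM) and *Notch3* (7.10 and 5.6 RPKM), whose spread in *Dio3+/+* hearts was wide, and were not tested.

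**Figure D3:**
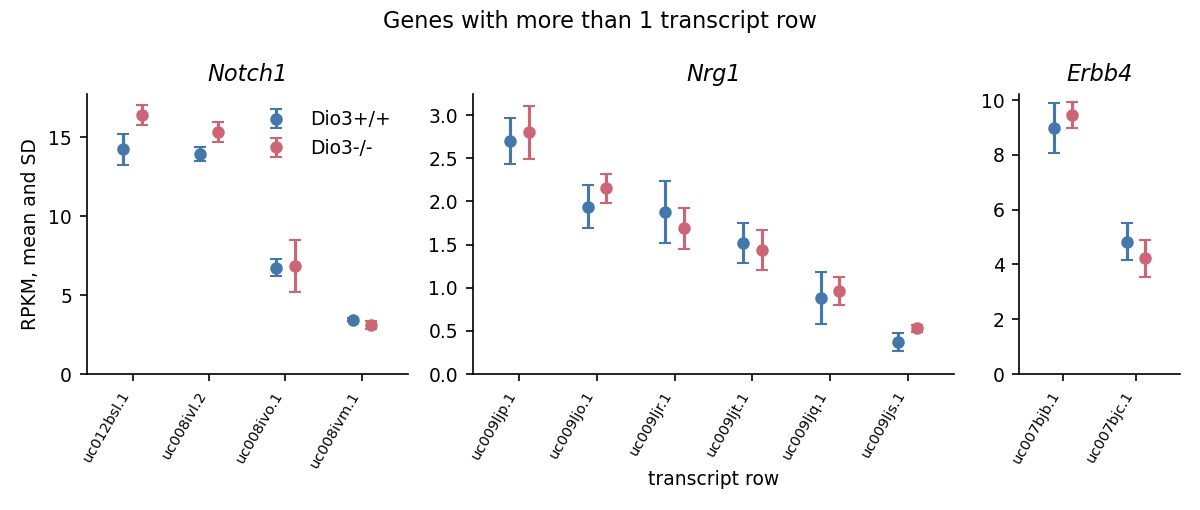
Mean RPKM with bars of 1 SD for each transcript row (horizontal axis) of *Notch1*, *Nrg1* and *Erbb4* in 4 *Dio3+/+* (blue) and 4 *Dio3-/-* (red) hearts, with a separate vertical axis from 0 for each gene. The 2 highest *Notch1* rows lie higher in *Dio3-/-* hearts and the lowest does not, and the 2 *Erbb4* rows lie in opposite directions.

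*Nrg1* had 6 rows, of which 4 were above 1 RPKM. Of these, 2 had positive log2 fold changes, 0.12 for uc009ljo.1 and 0.04 for uc009ljp.1, and the other 2 had negative ones, −0.12 for uc009ljr.1 and −0.06 for uc009ljt.1. Their adjusted *P* values by limma ran from 0.557 to 0.848. The lowest row, uc009ljs.1, averaged 0.37 RPKM (0.28) in the wild type and 0.53 RPKM (0.07) in the knockout and was not tested. The second row of *Erbb4*, uc007bjc.1, averaged 4.83 RPKM (0.14) and 4.22 RPKM (0.16), for a log2 fold change of −0.18 (−0.45 to 0.09, adjusted *P* = 0.482 by limma), opposite in sign to the highest row. The other 7 members had 1 row each.

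*Hey2*, a basic helix-loop-helix repressor of the compact myocardium, and *Bmp10*, the growth factor of the trabecular myocardium, had log2 fold changes of opposite sign, neither past the test. *Hey2* averaged 44.75 RPKM (CV 0.14) in the wild type and 50.07 RPKM (0.03) in the knockout, for a log2 fold change of 0.16 (−0.04 to 0.36, adjusted *P* = 0.375 by limma). *Bmp10* averaged 30.56 RPKM (0.15) and 27.10 RPKM (0.07), for a log2 fold change of −0.17 (−0.39 to 0.05, adjusted *P* = 0.406 by limma). The genotypes overlapped within 1 SD for both genes. The ratio of the *Hey2* mean to the *Bmp10* mean was 1.46 in *Dio3+/+* and 1.85 in *Dio3-/-* hearts, a description without a test, since it would need both values in each heart. This ratio covers 2 genes only, and the lists of trabecular and compact genes described below did not share its direction. The 8 trabecular genes had a median log2 fold change of 0.15 (5 positive, 3 negative). The 5 compact genes had a median of 0.09 (3 positive, 2 negative).

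The promoters of these paired genes are shown because both hold the letters bound by RBPJ, the DNA-binding partner of activated Notch. Windows from 250 bases before to 50 bases after the start site (RefSeq, GRCm38.p6) were found for 8 of the 10 members, not for *Nrg1* and *Erbb3*. Both strands were searched for TGGGAA, which 25.6% of all 32851 windows held, and for the longer CGTGGGAA that contains it, which 0.734% held. TGGGAA was found in *Hey2* and *Bmp10*, 2 of the 8, which is near its share of all windows. CGTGGGAA was found in *Hey2* alone of the 8, at −207 to −200 on the opposite strand and at −5 to 3 on the gene's strand, counted from the start site as 1. The *Hey2* stretch is chr10:30842781-30843033 on the minus strand, with both CGTGGGAA matches in capitals, and the *Bmp10* stretch is chr6:87428744-87428993 on the plus strand, with the TGGGAA match at −224 to −219 in capitals.
*Hey2*: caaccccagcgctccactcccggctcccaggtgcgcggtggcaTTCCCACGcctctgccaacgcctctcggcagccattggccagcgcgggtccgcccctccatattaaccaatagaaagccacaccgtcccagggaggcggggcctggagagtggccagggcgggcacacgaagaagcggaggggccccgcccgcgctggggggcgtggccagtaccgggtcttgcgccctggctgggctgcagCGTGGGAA
*Bmp10*: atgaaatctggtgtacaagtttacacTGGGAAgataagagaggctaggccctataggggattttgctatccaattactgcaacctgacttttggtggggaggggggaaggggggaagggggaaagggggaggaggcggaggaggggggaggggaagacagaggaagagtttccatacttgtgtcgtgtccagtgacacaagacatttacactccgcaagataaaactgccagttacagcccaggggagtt
AGGTCA, the half-site of thyroid hormone receptors, was held by 16.3% of all windows and by 0 of the 8, and its direct repeat with any 4 bases between the copies by 0.0152% and 0 of the 8. These letters describe the windows and are not evidence of binding.

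*Adamts1*, the protease that cuts versican, averaged 27.52 RPKM (CV 0.13) in the wild type and 25.14 RPKM (0.02) in the knockout. Its log2 fold change was −0.13 (−0.31 to 0.06, adjusted *P* = 0.452 by limma), and the genotypes overlapped within 1 SD. Its substrate gene *Vcan* stood at 87.75 RPKM (0.20) and 73.17 RPKM (0.05), 3.19 times *Adamts1* in *Dio3+/+* and 2.91 times in *Dio3-/-* hearts (log2 fold change of *Vcan* −0.26, adjusted *P* = 0.292 by limma).

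**Figure D4:**
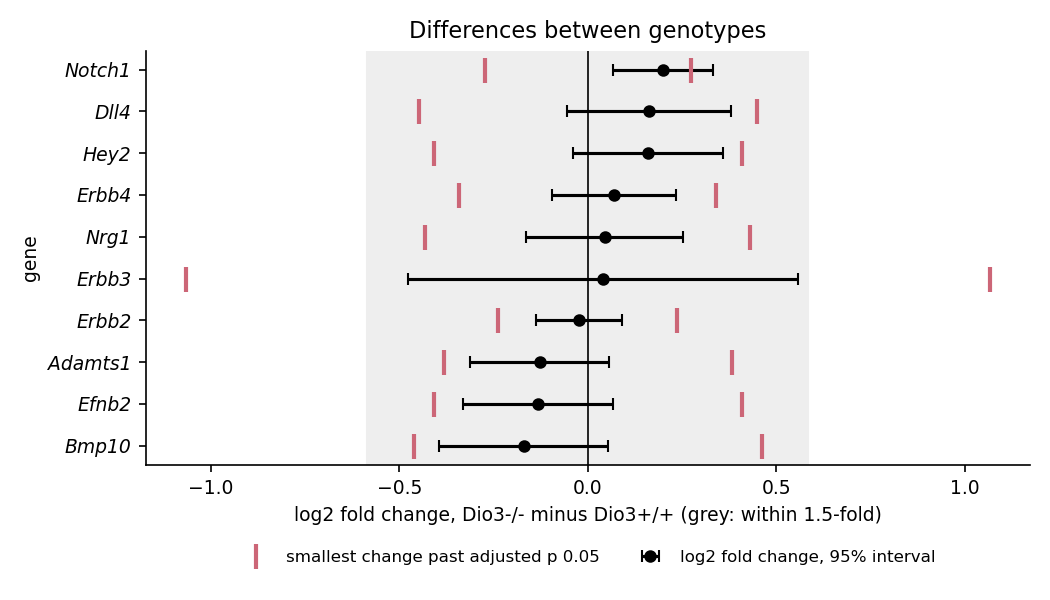
Log2 fold change of each gene, *Dio3-/-* minus *Dio3+/+*, on the log2(RPKM + 0.5) scale (horizontal axis), with 95% intervals (black) and the smallest change in either direction that would have passed an adjusted *P* value of 0.05 (red ticks). All 10 intervals lie inside the grey band of 1.5-fold, and only that of *Notch1*, from 0.07 to 0.33, leaves out 0.

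Apart from *Erbb3*, the smallest difference that would have passed ranged from 1.18-fold for *Erbb2* to 1.38-fold for *Bmp10*, as the plot of differences shows. Smaller differences in these genes would not have passed with the observed standard errors and this threshold. The members include genes of endothelium (*Notch1*, *Dll4*, *Efnb2*, *Nrg1*) and of myocardium (*Erbb2*, *Erbb4*, *Hey2*, *Bmp10*), so marker levels of both tissues are given. Over all genes tested, 9273 of 14657 log2 fold changes were positive (7411 when centred), and 19.7% of genes had an unadjusted *P* value under 0.05 by limma. The 10 endothelial and endocardial markers, of which *Cdh5* had the highest level, had positive log2 fold changes (9 of 10 when centred) with a median of 0.11, and by limma 0 passed and 3 had an unadjusted *P* value under 0.05 (adjusted *P* from 0.140 to 0.974 by limma), and their summed level was 310.34 RPKM in the wild type and 332.98 RPKM in the knockout. Of the 8 cardiomyocyte markers, 7 had positive log2 fold changes, with a median of 0.23 over the 8, and 4 had an unadjusted *P* value under 0.05 by limma. Their summed level was 7269.24 RPKM in the wild type and 8709.08 RPKM in the knockout. Past the adjusted threshold, 1 of them, the α myosin heavy chain gene *Myh6*, rose (459.52 and 959.07 RPKM, log2 fold change 1.06, adjusted *P* = 0.00125 by limma). None of the 5 epicardial markers (99.25 and 105.80 RPKM in sum) or the 4 cushion markers passed, with 1 and 0 at an unadjusted *P* value under 0.05 by limma. The 5 red cell markers found summed to 37086.90 RPKM in the wild type and 12662.44 RPKM in the knockout. Most of these sums came from 2 globin genes, *Hbb-y* (29100.96 and 9908.94 RPKM) and *Hba-x* (7388.93 and 2529.68 RPKM). All 5 had negative log2 fold changes and an unadjusted *P* value under 0.05 by limma. Of these, 1, *Hbb-bh1*, passed the test as lower (log2 fold change −1.51, adjusted *P* = 0.0468 by limma). The 8 liver markers summed to 15.17 and 102.94 RPKM, with median CVs of 1.02 and 1.105 and, by limma, 0 past the test and 8 at an unadjusted *P* value under 0.05. At such spreads these *P* values are least reliable, because the SD on the log2 scale was approximated from the CV. The part of these tissues in the levels of the members was not tested.

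The wider pathways were read from lists chosen with earlier results of these data known. Together the lists hold 117 genes, all found, of which 101 were above 1 RPKM in at least 1 genotype. Of these 101 genes, 4 rose and 1 fell by limma, against 1.91% of all genes that rose and 0.382% that fell. Of the 336 genes that passed in all, 83.3% were higher in *Dio3-/-* hearts, or 71.7% of 180 when centred. The median log2 fold change over the 101 was −0.01, against 0.04 for all genes. Of the 101 values, 49 were positive and 51 negative, and 23 genes had an unadjusted *P* value under 0.05 by limma. Over all 14657 genes tested, 9273 were positive and 5295 negative (7411 and 7246 when centred), and 19.7% had such a *P* value. These shares are the background for the counts of each list below. Because the lists were chosen with earlier results known, a count above its share is not a test of enrichment.

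*Lrig1* and *Ptpn11* rose in the ErbB pathway list, in which 19 of 27 genes were tested. LRIG1, a membrane protein that promotes the degradation of ErbB receptors, had a transcript level of 9.83 RPKM (CV 0.11) in the wild type and 14.55 RPKM (0.10) in the knockout. Its log2 fold change was 0.54 (0.34 to 0.75, adjusted *P* = 0.0203 by limma). *Ptpn11*, which encodes the phosphatase SHP2 downstream of receptor tyrosine kinases, rose from 39.58 RPKM (0.04) to 47.03 RPKM (0.02), for a log2 fold change of 0.25 (0.15 to 0.34, adjusted *P* = 0.0247 by limma; 0.0589 with all log2 ratios centred on their median). *Tgfa*, an EGFR ligand, had 2.07 RPKM (0.08) and 2.75 RPKM (0.06), with an adjusted *P* value of 0.0593 by limma, or 0.041 without the mean-variance trend. By limma, 5 of the 19 genes had an unadjusted *P* value under 0.05. The list median was 0.05, and 14 of its log2 fold changes were positive and 5 negative (12 and 7 when centred).

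In the Notch pathway list, 0 of 33 genes tested passed, with 4 at an unadjusted *P* value under 0.05 by limma, and its median log2 fold change was −0.02. The lowest *P* values after that of *Heyl* (4.45 and 5.58 RPKM, log2 fold change 0.30, adjusted *P* = 0.0692 by limma) were those of *Notch1* and *Nrarp* (7.59 and 8.79 RPKM, 0.20, adjusted *P* = 0.152). *Heyl* encodes a relative of HEY2 and *Nrarp* a feedback inhibitor, and both are Notch targets. *Hey1* and *Hes1*, other Notch targets, had log2 fold changes of 0.08 and 0.06, and the target *Efnb2* had −0.13. Over the whole Notch list, 14 log2 fold changes were positive and 18 negative (13 and 20 when centred). The negative ones included *Notch2*, *Notch3*, *Notch4* and *Jag1*. In the ephrin B and EphB list, 0 of 8 genes tested passed and 1 had an unadjusted *P* value under 0.05 by limma. All but *Ephb4*, the receptor of *Efnb2* (30.65 and 30.95 RPKM), had negative log2 fold changes (8 of 8 when centred), with a median of −0.18. The median CV of the 8 genes was 0.195 between *Dio3+/+* and 0.055 between *Dio3-/-* hearts, and *Ephb2* (0.72 and 0.25) and *Epha4* (0.30 and 0.05) were widest in *Dio3+/+* hearts. Whether the same heart carried these spreads is not known. The lowest *P* values there were those of *Efnb3* (34.99 and 30.73 RPKM, adjusted *P* = 0.138 by limma), *Ephb6* (0.271) and *Ephb3* (0.371).

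*Hapln1* rose in the cardiac jelly list, in which 13 of 16 genes were tested. HAPLN1, which links versican to hyaluronan, had a transcript level of 23.49 RPKM (CV 0.07) in the wild type and 29.13 RPKM (0.05) in the knockout, for a log2 fold change of 0.30 (0.17 to 0.44, adjusted *P* = 0.0392 by limma). With all log2 ratios centred on their median, its adjusted *P* value was 0.0731, and over the alternatives it ran from 0.0307 to 0.145. Of the 13 log2 fold changes, 11 were negative, with a median of −0.13, and 3 genes had an unadjusted *P* value under 0.05 by limma. The list median CV was 0.09 in *Dio3+/+* and 0.05 in *Dio3-/-* hearts. Some of the negative genes had a wide spread in *Dio3+/+* hearts, such as *Adamts4* (0.50 and 0.07), *Has2* (0.35 and 0.09) and *Adamts15* (0.32 and 0.08). *Cd44*, the hyaluronan receptor, had 21.61 and 19.26 RPKM (adjusted *P* = 0.145 by limma), and *Adamts5* 4.12 and 4.68 RPKM (adjusted *P* = 0.192 by limma).

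*Bmpr1a* rose among the 19 genes tested for BMP10 signalling. It encodes a type I BMP receptor of the myocardium and went from 53.97 RPKM (CV 0.08) in the wild type to 72.53 RPKM (0.03) in the knockout, for a log2 fold change of 0.42 (0.29 to 0.56, adjusted *P* = 0.00875 by limma). The inhibitory *Smad6* had 26.10 and 31.37 RPKM (adjusted *P* = 0.0751 by limma) and *Smad9* 3.13 and 3.87 RPKM (0.104). The list median was 0.09, and 12 of 19 log2 fold changes were positive, against 9273 of all 14657 genes. An unadjusted *P* value under 0.05 by limma was found for 7 of 19 genes, against 19.7% of all genes. The BMP targets *Id1*, *Id2* and *Id3* had log2 fold changes of −0.08, 0.16 and 0.06, none past the test.

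*Cited1*, a transcriptional coregulator found in trabecular myocardium, fell among the 8 trabecular genes. It went from 145.18 RPKM (CV 0.11) in the wild type to 96.85 RPKM (0.10) in the knockout, for a log2 fold change of −0.58 (−0.79 to −0.37, adjusted *P* = 0.0159 by limma). Of the 8 log2 fold changes, 5 were positive and 3 negative, with a median of 0.15, and 3 genes had an unadjusted *P* value under 0.05 by limma. The RNA came from whole hearts, so these levels are not those of trabecular myocardium alone. The lowest *P* values after that of *Cited1* were those of *Smpx* (log2 fold change 0.23, adjusted *P* = 0.242 by limma) and *Nppa*, atrial natriuretic peptide (0.21, 0.257). Among the 5 compact myocardium genes 0 passed and 1, *Tbx20*, had an unadjusted *P* value under 0.05 by limma. *Tbx20*, a cardiac T-box factor, had 158.10 RPKM (0.17) and 200.63 RPKM (0.05), with an adjusted *P* value of 0.125 by limma, and *Ccnd2*, a D cyclin, had a log2 fold change of −0.10. With Welch's test from the summaries, none of the 5 pathway genes that passed limma had an adjusted *P* value under 0.05.

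**Figure D5:**
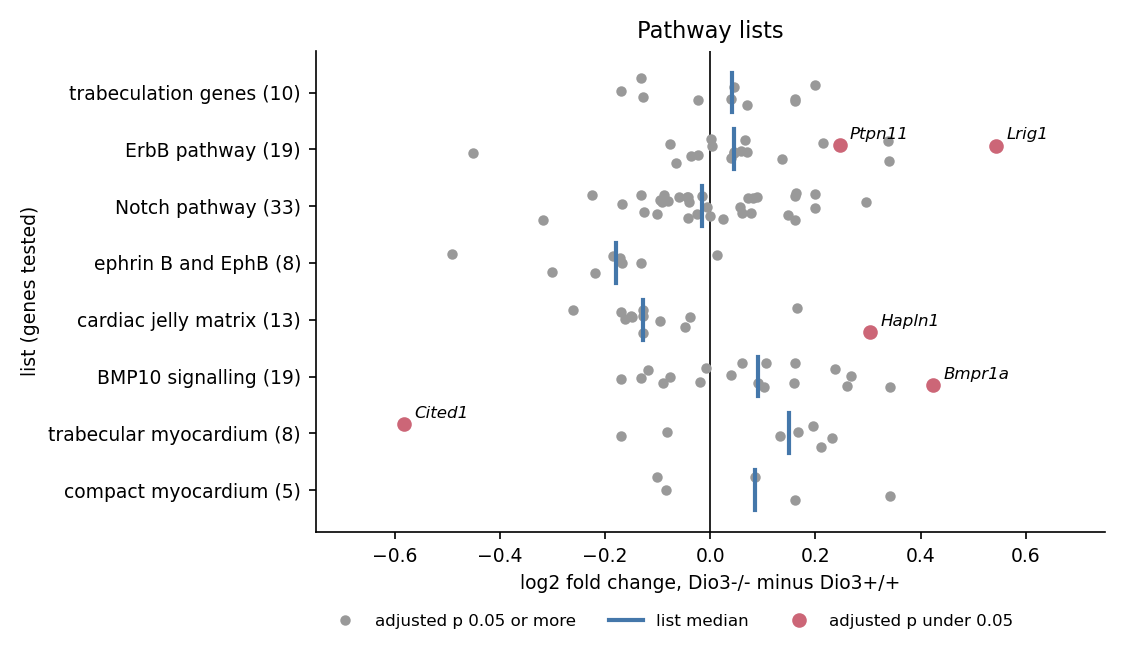
Log2 fold change, *Dio3-/-* minus *Dio3+/+*, of each tested gene (horizontal axis) in each list (vertical axis, with the number tested), red where the adjusted *P* value by limma was under 0.05, and with the list median as a blue bar. *Lrig1*, *Ptpn11*, *Hapln1* and *Bmpr1a* lie to the right of 0 and *Cited1* to the left, and none of the 10 trabeculation genes is red.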

How the data were processed

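Total RNA of 8 fetal hearts, 4 per genotype, was sequenced after ribosomal RNA removal. Single-end reads were aligned by the authors with NovoAlign (version 2.08). They kept uniquely mapping reads and scaled samples linearly to the smallest. The genome build is not given in the sources used here. Genotype means were deposited, taken here as RPKM from the filter in the methods, since the header names no unit. They also deposited the coefficient of variation, a ratio of SD to mean; both are rounded to 2 decimals. The table also holds the authors' fold changes and *q* values, which were not used.

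Rows in which either genotype averaged above 1 RPKM were tested on log2(mean + 0.5). The SD on this scale came from the deposited coefficient of variation by the delta method. In R (version 4.3.3), limma (version 3.58.1) moderated the pooled variance along a trend with the mean, for 6 residual and 3.52 prior degrees of freedom. The Benjamini-Hochberg adjustment of the two-sided *P* values covered all 32703 rows, and the largest *P* value that passed was 0.00107. The test was also run on simulated hearts that had the same spread in both genotypes, so unequal spreads were not checked. Where only a few hearts carry most of a transcript, the delta-method approximation is least reliable. A log2 fold change after adding 0.5 understates the change of low genes.

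The members and lists were chosen with earlier results of these data known. Genes named were the members, the genes of each list that passed and, where fewer than 3 passed, those with the lowest *P* values up to 3. Other genes named, such as family partners and pathway targets, were chosen after their values were seen. No genes of like pattern were sought, because 2 means give no pattern. The designs allowed for single hearts, and none are in the table, so leaving out hearts was not possible. Promoters were RefSeq sequences of GRCm38.p6, searched in Python (version 3.11.15). The result of 1 marker list is not reported here.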

Additional observations from a re-analysis of the deposited data

How the results depend on the processing

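The count of 0 members past the threshold held in all 11 alternatives, and the sign of each member's log2 fold change held in each alternative that tested it. Members under 5 RPKM were not tested with a mean over both genotypes above 5 RPKM, which left 7. The 5 pathway genes became 3 with all log2 ratios centred on their median (a shift of 0.04) and 0 with Welch's test. All genes passing by their highest row numbered 336, but 197 without an expression filter, 27 with Welch's test, 180 when centred and 187 with each coefficient of variation raised by 0.005. The 703 rows became 431, 69, 394 and 414 in the same order, and 319 with 1 row per gene. The share of these genes that was higher in *Dio3-/-* hearts went from 83.3% to 71.7% when centred and 100% with Welch's test. Ordering members by the sum of their rows moved 8 of them. *Notch1* went to place 2 and *Nrg1* from place 10 to place 8, because their rows were added up. The number of members with an interval within 1.5-fold was 10, and 9 with a pseudocount of 0.1, with Welch's test or with a correction for the mean of the logs. No paired analysis was possible because the table holds no values of single hearts, and for the same reason no heart could be left out. Without read counts in the table, the precision behind low genes such as *Nrg1* rests on the deposited spread alone.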
